A study of Mus musculus with 9 samples.

Results

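The Notch pathway was followed through 10 genes: the receptors Notch1, Notch2, Notch3 and Notch4, the ligands Dll4, Jag1 and Jag2, and the target genes Hes1, Hey1 and Heyl. They were taken by name from a count table of 54532 mouse genes, and all 10 were among the 16526 genes with enough reads to be tested. Bulk RNA-seq was carried out on adipose-derived stem cells (ASCs) cultured from C57BL/6 mice, with 3 libraries from subcutaneous fat (Sub-ASCs), 3 from abdominal fat (Ab-ASCs) and 3 from perivascular fat (PVASCs). Fat depot is the one difference between the groups that the labels give, and they name no treatment, transgene, age or sex. All cells were expanded in stem cell medium with serum, leukemia inhibitory factor and FGF, and the passage of each library was not given in the sources used here, so that passage and depot cannot be told apart. The question put to the members was how the levels and the makeup of the Notch pathway differed among the depots.

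Notch receptors sit in the cell membrane and are activated by Delta-like and Jagged ligands on a neighbouring cell. Activation lets an ADAM protease and then gamma-secretase cut the receptor, and the freed intracellular part joins Rbpj and a mastermind protein on DNA, where genes of the Hes and Hey repressor families are switched on. In blood vessels, Dll4 and Notch4 are known from the endothelium, Notch3 and Heyl from pericytes and smooth muscle cells, and Jag1 from signaling between both layers.

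The libraries held 20524173 to 29881036 counted reads. Levels are given as CPM, reads scaled to a common library size by TMM. A count of 3 reads, taken as the limit of what can be measured, was worth 0.0917 to 0.161 CPM by library, a limit for counting error alone because reads from one molecule can be counted more than once. Nothing in the labels says whether the 3 libraries of a group came from separate mice or cultures, so p-values measure only the spread between these libraries, which may be technical. No pair of libraries was a duplicate, and Ab-ASC 1 stood apart from the other Ab-ASC libraries (chi-square per degree of freedom of 16.4 and 25.9, against 3.95 between Ab-ASC 2 and Ab-ASC 3). Without it the counts of members called stayed at 8, 9 and 9 in the 3 comparisons. All 6 ASC markers (Ly6a, Thy1, Eng, Pdgfra, Cd34 and Nt5e) had reads in every group, with summed levels of 5323 to 5388 CPM in Sub-ASCs, 834 to 908 CPM in Ab-ASCs and 1728 to 1801 CPM in PVASCs. Markers of other cell types were present too, and their values stand beside the members below.

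Most members were higher in PVASCs. Compared with Sub-ASCs, 7 of 10 members were higher in PVASCs and 1 was lower, at a threshold of 0.05 on the p of edgeR's quasi-likelihood test after the Benjamini-Hochberg adjustment over all tested genes. The lower member was Dll4, which passed the low-count filter through Sub-ASCs alone, where it is high, so that its call in both comparisons with Sub-ASCs is a description. The background between PVASCs and Sub-ASCs was high, with 70.4% of all tested genes called, 34.7% of them higher and 35.7% lower in PVASCs. The median log2 fold change was 0.98 over the members and -0.01 over all tested genes. Compared with Ab-ASCs, 8 members were higher in PVASCs and 1 was lower, where 56.9% of all tested genes were called, 24.7% higher and 32.1% lower. The median there was 1.07 over the members and -0.06 over all genes. Between Ab-ASCs and Sub-ASCs, 4 members were higher in Ab-ASCs and 5 lower, against a background of 75.3% called, with 37.0% higher and 38.3% lower. That median was -0.44 over the members and -0.03 over all genes. Each group enters 2 of the 3 comparisons, so these counts are not independent of each other.

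**Figure D1:**
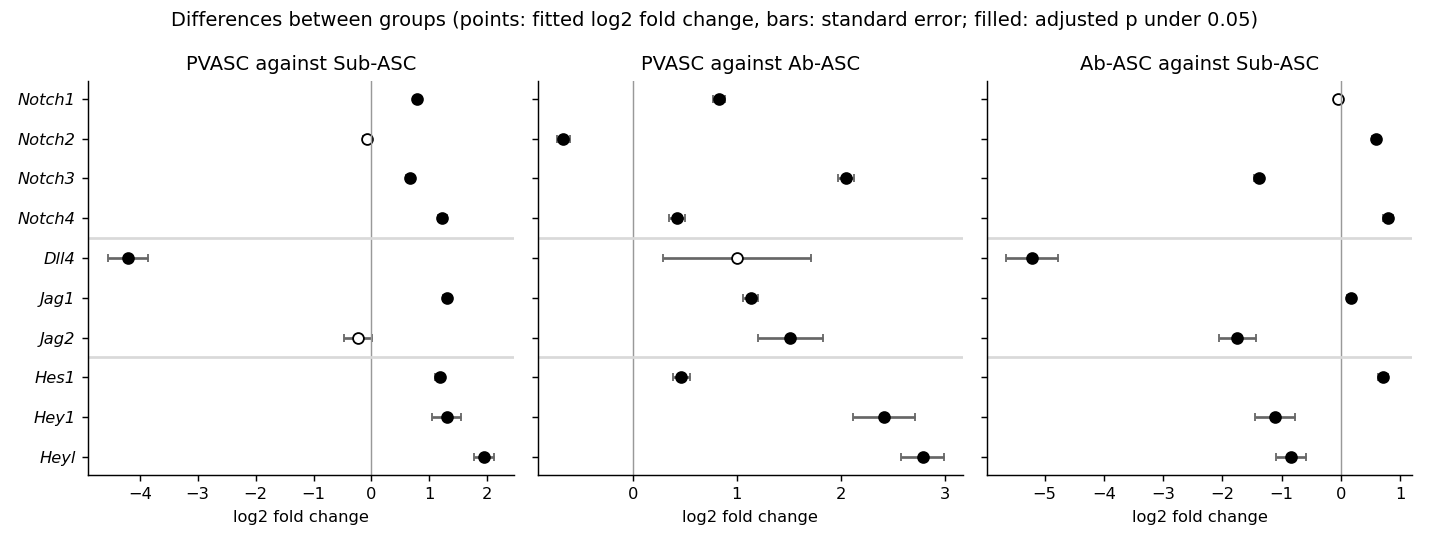
Fitted log2 fold changes of the 10 members in the 3 comparisons, receptors at the top, ligands in the middle and targets at the bottom, with bars for the standard error. Filled points passed an adjusted p of 0.05; the point farthest from 0 in both comparisons with Sub-ASCs is Dll4, at -4.21 for PVASCs and -5.21 for Ab-ASCs, and the open points are Notch2 and Jag2 (PVASC against Sub-ASC), Dll4 (PVASC against Ab-ASC) and Notch1 (Ab-ASC against Sub-ASC).

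Notch1 (ENSMUSG00000026923, chr2:26457903-26516663 on the minus strand, GRCm38), a receptor of many tissues, measured 36.9, 37.8 and 38.8 CPM in Sub-ASC libraries 1 to 3, 36.6, 36.8 and 36.5 CPM in Ab-ASCs, and 64.5, 63.9 and 66.8 CPM in PVASCs. The PVASC libraries lay well above all others, and the remaining 6 libraries fell within a narrow band. In PVASCs Notch1 was 1.72-fold higher than in Sub-ASCs (log2 fold change 0.78 ± 0.05, SE, edgeR adjusted p = 4.11e-08) and 1.78-fold higher than in Ab-ASCs (0.83 ± 0.05, edgeR adjusted p = 9.85e-08). Between Ab-ASCs and Sub-ASCs the log2 fold change was -0.05 ± 0.05 and did not pass the test (edgeR adjusted p = 0.452).

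Notch2 (ENSMUSG00000027878, chr3:98013527-98150361, plus strand), a broadly expressed receptor, was highest in Ab-ASCs, unlike the other receptors. Its levels were 119, 132 and 114 CPM in Sub-ASCs, 179.6, 182 and 187 CPM in Ab-ASCs, and 113, 113 and 120.2 CPM in PVASCs. All 3 Ab-ASC libraries were above all others, while Sub-ASC and PVASC libraries overlapped. Notch2 was higher in Ab-ASCs than in Sub-ASCs by a log2 fold change of 0.59 ± 0.06 (edgeR adjusted p = 2.42e-06). It was lower in PVASCs than in Ab-ASCs by a log2 fold change of -0.67 ± 0.06 (edgeR adjusted p = 2.45e-06). The difference between PVASCs and Sub-ASCs, -0.08 ± 0.06 on the log2 scale, did not pass the test (edgeR adjusted p = 0.285).

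Notch3 (ENSMUSG00000038146, chr17:32120820-32166880, minus strand), the receptor of pericytes and smooth muscle cells, showed the largest fold change between groups among the receptors. It measured 25.5, 24.5 and 24.4 CPM in Sub-ASCs, 10.04, 8.85 and 9.63 CPM in Ab-ASCs, and 41.1, 39.9 and 36.9 CPM in PVASCs. The 3 groups were fully separate, in the order Ab-ASC, Sub-ASC, PVASC. PVASCs were 4.14-fold above Ab-ASCs (log2 fold change 2.05 ± 0.08, edgeR adjusted p = 6.97e-10) and 1.59-fold above Sub-ASCs (0.66 ± 0.07, edgeR adjusted p = 2.19e-06). Ab-ASCs were lower than Sub-ASCs by a log2 fold change of -1.38 ± 0.08 (edgeR adjusted p = 5.62e-09).

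Notch4 (ENSMUSG00000015468, chr17:34564268-34588503, plus strand), a receptor best known from endothelial cells, followed another order. Its levels were 10.3, 9.32 and 10.49 CPM in Sub-ASCs, 17.8, 17.8 and 16.8 CPM in Ab-ASCs, and 22.0, 24.8 and 23.4 CPM in PVASCs. Again no library of one group reached the range of another. In PVASCs Notch4 was 2.33-fold higher than in Sub-ASCs (log2 fold change 1.22 ± 0.08, edgeR adjusted p = 2.93e-08), 1.34-fold higher in PVASCs than in Ab-ASCs (0.42 ± 0.08, edgeR adjusted p = 0.00062) and 1.74-fold higher in Ab-ASCs than in Sub-ASCs (0.80 ± 0.08, edgeR adjusted p = 2.33e-06).

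**Figure D2:**
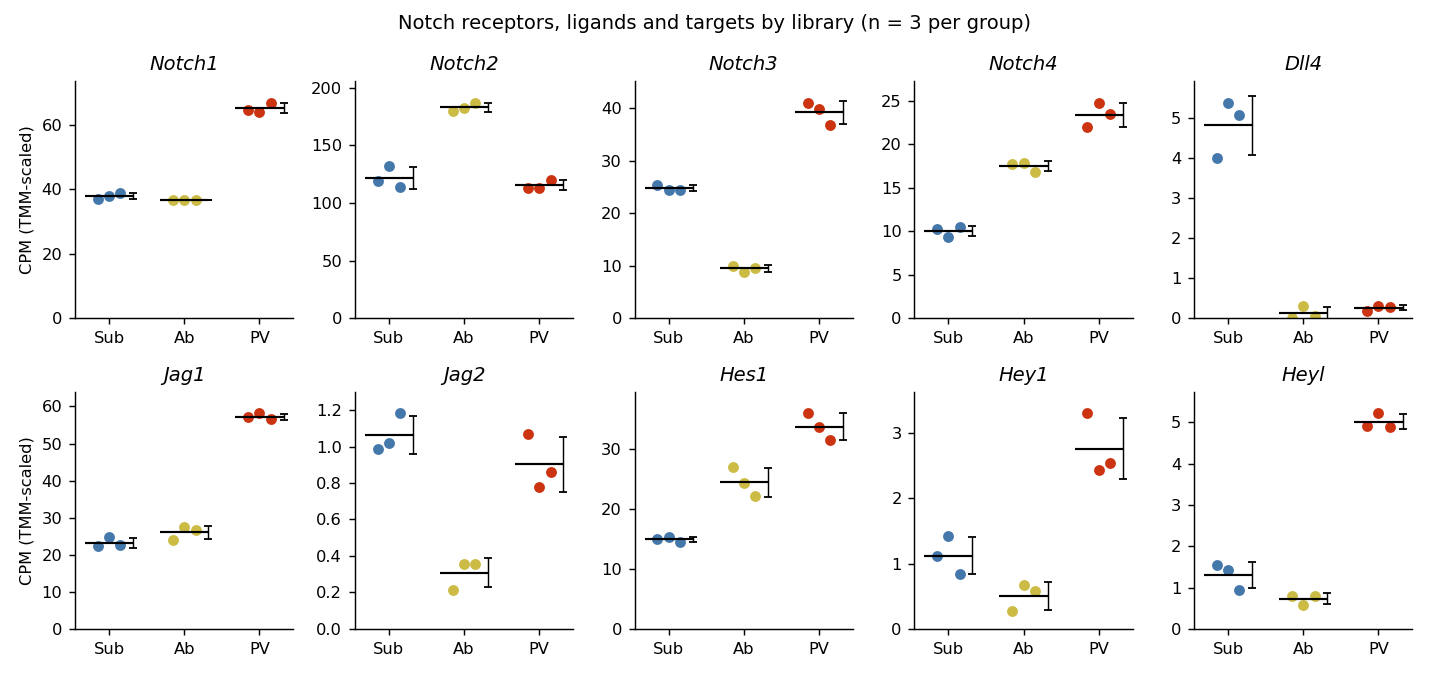
CPM after TMM scaling of each member in each library, with the group mean (line) and SD (bar, n = 3) and a linear axis from 0 in each panel. PVASC libraries are above all others for Notch1, Notch3, Notch4, Jag1, Hes1, Hey1 and Heyl, whereas Ab-ASC libraries lead for Notch2 and Sub-ASC libraries for Dll4.

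The makeup of the receptor pool was described from FPKM, which divides the CPM by gene length so that genes can be set beside each other. The listed lengths, such as 14232 bases for Notch1 and 8044 for Notch3, need not be those of the transcripts expressed here. Shares and order by FPKM depend on these lengths. Summed over the 4 receptors, FPKM was 18.3 ± 0.766 (SD, n = 3) in Sub-ASCs, 22.9 ± 0.272 in Ab-ASCs and 23.1 ± 0.242 in PVASCs. The libraries of Ab-ASCs and PVASCs overlapped in this sum, and their makeup differed. Notch2 supplied 61.7% ± 2.18 of the summed FPKM in Sub-ASCs, 74.1% ± 0.673 in Ab-ASCs and 46.4% ± 1.23 in PVASCs. Notch1 made up 14.6% ± 0.812, 11.2% ± 0.161 and 19.8% ± 0.288 in the same order of groups. The share of Notch3 was 16.9% ± 0.843 in Sub-ASCs, 5.16% ± 0.337 in Ab-ASCs and 21.2% ± 1.40 in PVASCs. For Notch4 it was 6.84% ± 0.700, 9.47% ± 0.417 and 12.6% ± 0.731. For each receptor the share in every PVASC library lay outside the range of the other groups, below it for Notch2 and above it for the other 3.

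**Figure D3:**
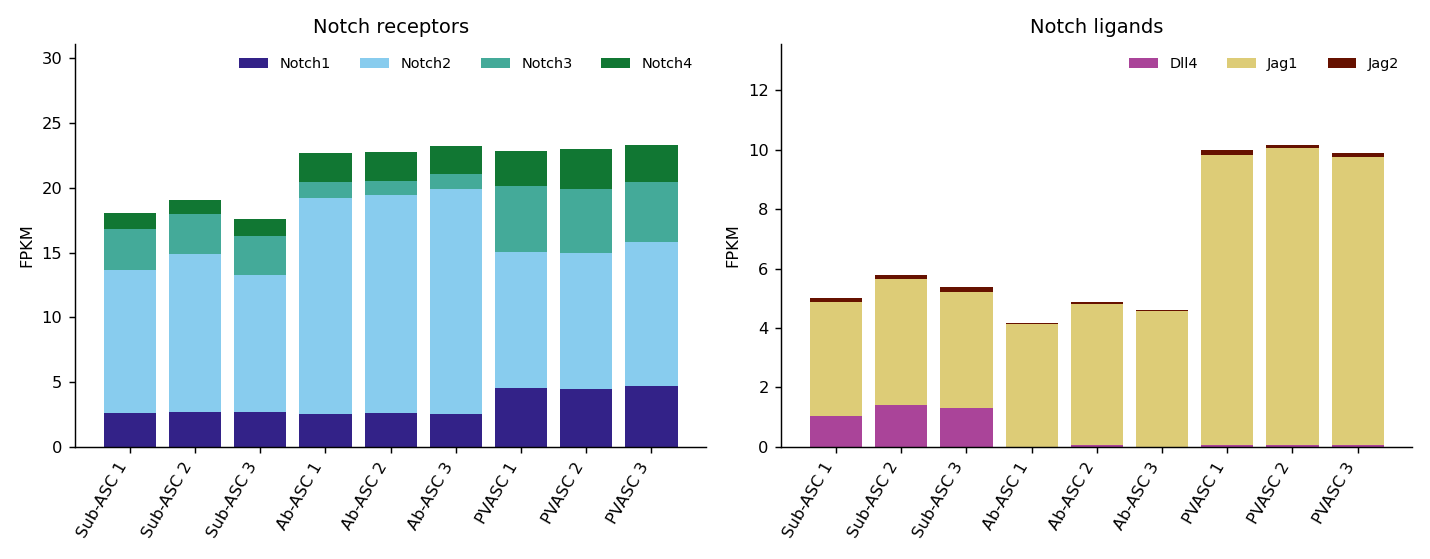
FPKM of the receptors (left) and ligands (right) stacked for each of the 9 libraries. Notch2 is the widest band of the receptors in every library, Jag1 of the ligands, and the Dll4 band is broad in the Sub-ASC libraries and thin or missing in the others.

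Among the ligands, Dll4 had its highest level in Sub-ASCs and Jag1 in PVASCs. Their promoters are shown because these ligands made up nearly all of the summed FPKM of the 3 ligands among the members. The bases are from RefSeq on GRCm38.p6, 250 before the RefSeq start of the gene and 20 from that start on, read 5′ to 3′ on the strand of the gene. This start need not be the one in the count table. It is the same for Dll4 and Nrarp, but lies 124 bases inside the listed gene for Jag1, 281 for Jag2 and 12841 for Notch1, and within 27 bases of the listed start for the others. RefSeq entries were matched for 7 of the 10 members, the members without one being Hes1, Hey1 and Heyl. Capitals mark matches, on either strand, to CACGCG, a sequence bound by Hes and Hey proteins (on the opposite strand it reads CGCGTG). The first is Dll4 (chr2:119325534-119325803, plus strand) and the second Jag1 (chr2:137116501-137116770, minus strand).
Dll4: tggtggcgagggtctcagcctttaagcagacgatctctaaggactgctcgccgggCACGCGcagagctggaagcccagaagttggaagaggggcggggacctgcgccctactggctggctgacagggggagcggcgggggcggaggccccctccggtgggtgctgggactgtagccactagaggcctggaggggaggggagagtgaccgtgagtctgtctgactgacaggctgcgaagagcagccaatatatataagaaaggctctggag
Jag1: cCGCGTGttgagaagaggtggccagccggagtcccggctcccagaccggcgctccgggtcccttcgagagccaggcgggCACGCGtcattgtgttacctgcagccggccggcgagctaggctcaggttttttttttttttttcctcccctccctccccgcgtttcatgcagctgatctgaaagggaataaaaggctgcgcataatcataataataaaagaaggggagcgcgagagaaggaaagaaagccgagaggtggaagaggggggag
Dll4 held 1 such match, at bases -195 to -190 from the RefSeq start, and Jag1 held 2, at -249 to -244 and -171 to -166. Notch2 held 1, at -42 to -37, and Notch1, Notch3, Notch4 and Jag2 held none in this window. The same letters were found in 8.33% of all 32851 promoters of that length. A match describes the sequence and shows no binding.

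Dll4 (ENSMUSG00000027314, chr2:119325784-119335962, plus strand), the ligand of sprouting and arterial endothelium, was counted with 93, 137 and 133 reads in the Sub-ASC libraries, with 0, 7 and 1 in the Ab-ASC libraries, and with 6, 9 and 9 in the PVASC libraries. In CPM this was 3.99, 5.38 and 5.07 in Sub-ASCs against at most 0.311 in Ab-ASCs and 0.305 in PVASCs. Every Sub-ASC library was thus far above the other 6. Because no library outside Sub-ASCs reached 10 reads, the gene entered the test through that group. Its differences from Sub-ASCs are therefore given as a description, with fitted log2 fold changes of -4.21 ± 0.35 in PVASCs and -5.21 ± 0.44 in Ab-ASCs. From the reads alone, Sub-ASCs exceeded PVASCs 18.9-fold (95% exact Poisson interval 12.5 to 29.9) and Ab-ASCs 38.5-fold (19.3 to 89.8), intervals that cover counting error only. Without Ab-ASC 2, which held 7 of the 8 Ab-ASC reads, the log2 fold change of Ab-ASCs against Sub-ASCs was -7.37. The difference of PVASCs from Ab-ASCs did not pass the test (1.00 ± 0.71, edgeR adjusted p = 0.249). That result rests on Ab-ASC 2 too, and without this library the log2 fold change was 3.16 with an edgeR adjusted p = 0.0112.

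Jag1 (ENSMUSG00000027276, chr2:137081456-137116644, minus strand), a Jagged ligand found on endothelium and smooth muscle, measured 22.4, 24.8 and 22.7 CPM in Sub-ASCs, 24.1, 27.6 and 26.6 CPM in Ab-ASCs, and 57.1, 58.2 and 56.5 CPM in PVASCs. The PVASC libraries were apart from the rest, and the ranges of the other groups touched. In PVASCs Jag1 was 2.46-fold higher than in Sub-ASCs (log2 fold change 1.30 ± 0.07, edgeR adjusted p = 3.14e-09) and 2.19-fold higher than in Ab-ASCs (1.13 ± 0.07, edgeR adjusted p = 5.07e-08). The difference of Ab-ASCs from Sub-ASCs, 0.17 ± 0.07 on the log2 scale, passed the threshold narrowly (edgeR adjusted p = 0.049). It ranged from 0.12 to 0.22 over the alternative settings, with adjusted p from 0.00612 to 0.162, and most of these settings lost the call.

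Jag2 (ENSMUSG00000002799, chr12:112907819-112929776, minus strand), the other Jagged ligand, was low everywhere, with 23 to 31 reads in Sub-ASC libraries, 4 to 8 in Ab-ASC libraries and 23 to 35 in PVASC libraries. Its levels were 0.987, 1.02 and 1.18 CPM in Sub-ASCs, 0.215, 0.356 and 0.357 CPM in Ab-ASCs, and 1.07, 0.780 and 0.859 CPM in PVASCs. The Ab-ASC libraries were below all others, and the other groups overlapped. Jag2 was 2.86-fold higher in PVASCs than in Ab-ASCs (log2 fold change 1.51 ± 0.31, edgeR adjusted p = 0.00148). It was lower in Ab-ASCs than in Sub-ASCs by a log2 fold change of -1.75 ± 0.31 (edgeR adjusted p = 0.000276). Against Sub-ASCs the PVASC value was -0.23 ± 0.25, which did not pass the test (edgeR adjusted p = 0.414).

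Together the 3 ligands among the members summed to 5.40 ± 0.392 FPKM in Sub-ASCs, 4.55 ± 0.356 in Ab-ASCs and 10.02 ± 0.142 in PVASCs. Jag1 made up 74.1% ± 2.17 of this sum in Sub-ASCs, 98.4% ± 1.01 in Ab-ASCs and 98.0% ± 0.0736 in PVASCs. The share of Dll4 was 23.1% ± 2.11 in Sub-ASCs and at most 1.66% in any library of the other groups. Jag2 stayed between 0.740% and 3.16% in every library. The sum leaves out Dll1, another Delta-like ligand, which stood at 0.532 FPKM in Sub-ASCs, 0.172 in Ab-ASCs and 0.178 in PVASCs, above Jag2 in each group.

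All 3 target genes were higher in PVASCs than in either other group. Hes1 (ENSMUSG00000022528, chr16:30064384-30067796, plus strand), a repressor that keeps progenitors undifferentiated and is also switched on by other pathways, measured 14.98, 15.2 and 14.5 CPM in Sub-ASCs, 26.9, 24.3 and 22.1 CPM in Ab-ASCs, and 35.9, 33.7 and 31.5 CPM in PVASCs. The groups did not overlap, with Sub-ASCs lowest and PVASCs highest. In PVASCs Hes1 was 2.26-fold higher than in Sub-ASCs (log2 fold change 1.18 ± 0.08, edgeR adjusted p = 6.09e-08), 1.38-fold higher than in Ab-ASCs (0.47 ± 0.08, edgeR adjusted p = 0.000424) and 1.63-fold higher in Ab-ASCs than in Sub-ASCs (0.71 ± 0.09, edgeR adjusted p = 9.25e-06).

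Hey1 (ENSMUSG00000040289, chr3:8663359-8667256, minus strand), a Hey repressor of endothelial and heart development, had few reads. Its levels were 1.12, 1.41 and 0.839 CPM in Sub-ASCs, 0.268, 0.667 and 0.580 CPM in Ab-ASCs, and 3.30, 2.44 and 2.54 CPM in PVASCs. PVASC libraries were the highest and Ab-ASC libraries the lowest, without overlap. In PVASCs Hey1 was 2.46-fold higher than in Sub-ASCs (log2 fold change 1.30 ± 0.25, edgeR adjusted p = 0.00055) and 5.31-fold higher than in Ab-ASCs (2.41 ± 0.30, edgeR adjusted p = 3.14e-05). In Ab-ASCs it was lower than in Sub-ASCs (-1.11 ± 0.34, edgeR adjusted p = 0.0113), a call lost without Sub-ASC 2 (-0.90, edgeR adjusted p = 0.0526).

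Heyl (ENSMUSG00000032744, chr4:123233556-123249875, plus strand), the Hey gene of vascular smooth muscle, measured 1.55, 1.41 and 0.953 CPM in Sub-ASCs, 0.805, 0.578 and 0.803 CPM in Ab-ASCs, and 4.92, 5.22 and 4.90 CPM in PVASCs. Every PVASC library exceeded every library of the other groups, and the lowest Sub-ASC library was close to the Ab-ASC range. Its rise in PVASCs was 3.85-fold over Sub-ASCs (log2 fold change 1.95 ± 0.18, edgeR adjusted p = 6.63e-07) and 6.88-fold over Ab-ASCs (2.78 ± 0.20, edgeR adjusted p = 2.94e-07). Heyl was lower in Ab-ASCs than in Sub-ASCs by a log2 fold change of -0.84 ± 0.25 (edgeR adjusted p = 0.00935). Hes1 thus rose and Hey1 and Heyl fell in the Ab-ASC comparison with Sub-ASCs.

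Set in order by FPKM, Notch2 was first in Sub-ASCs at 11.3 FPKM, followed by Hes1 (7.32), Jag1 (3.99), Notch3 (3.08) and Notch1 (2.66). Dll4 and Notch4 came next at 1.25 and 1.24 FPKM with overlapping libraries, then Hey1 (0.344) and Heyl (0.255), also overlapping, and Jag2 at 0.153 FPKM. In Ab-ASCs the order began with Notch2 at 17.0 FPKM, Hes1 (12.0), Jag1 (4.48), Notch1 (2.57), Notch4 (2.17) and Notch3 (1.18). Hey1 and Heyl, at 0.155 and 0.143 FPKM, overlapped there, as did Jag2 and Dll4, at 0.0444 and 0.0308 FPKM. In PVASCs, Hes1 was first at 16.5 FPKM, ahead of Notch2 (10.7), Jag1 (9.82), and Notch3 and Notch1, which overlapped at 4.89 and 4.57 FPKM. Notch4 (2.91), Heyl and Hey1 (0.980 and 0.846, overlapping), Jag2 (0.130) and Dll4 (0.0670) completed it. By this scale Hes1 lay at the 82.3 percentile of all tested genes in PVASCs, and Dll4 at the 4.11 percentile.

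The other genes of the pathway, chosen from knowledge of Notch signaling, were lower more often than higher in PVASCs and in Ab-ASCs when set against Sub-ASCs. Of 68 listed genes 62 were tested, and 22 (35.5%) were higher and 34 (54.8%) lower in PVASCs than in Sub-ASCs, against 34.7% and 35.7% of all tested genes, with a median log2 fold change of -0.28. Compared with Ab-ASCs, 19 were higher and 19 lower in PVASCs (30.6% each, against 24.7% and 32.1% of all tested genes, median -0.02), and between Ab-ASCs and Sub-ASCs 15 (24.2%) were higher and 32 (51.6%) lower in Ab-ASCs, against 37.0% and 38.3% (median -0.26).

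Of the 8 further Hes and Hey genes and targets 5 were tested. In PVASCs 2 (Nrarp and Hey2) were higher and 2 lower than in Sub-ASCs (34.7% and 35.7% of all tested genes). Compared with Ab-ASCs, 2 were higher and 1 lower in PVASCs (24.7% and 32.1%). The calls of Hey2 are a description, as its reads below show. The lower genes, named after their values were seen, were Hes6 (10.1 CPM in PVASCs and 15.3 CPM in Sub-ASCs) and Bhlhe40 (64.7 CPM in PVASCs, 124 CPM in Sub-ASCs and 144 CPM in Ab-ASCs). The promoters of Nrarp, Hey2 and Lfng are shown because these genes are known to be switched on by Notch. Capitals mark CACGCG as above, GTGGGAA, the core bound by Rbpj (TTCCCAC on the opposite strand), and CACGTG, an E-box. The windows are Nrarp (chr2:25180508-25180777, plus strand), Hey2 (chr10:30842764-30843033, minus strand) and Lfng (chr5:140607091-140607360, plus strand).
Nrarp: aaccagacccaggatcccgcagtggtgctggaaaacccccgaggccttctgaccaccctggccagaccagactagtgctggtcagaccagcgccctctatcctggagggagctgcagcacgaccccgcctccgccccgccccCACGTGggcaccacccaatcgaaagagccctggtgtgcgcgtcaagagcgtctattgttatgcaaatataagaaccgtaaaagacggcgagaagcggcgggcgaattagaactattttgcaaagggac
Hey2: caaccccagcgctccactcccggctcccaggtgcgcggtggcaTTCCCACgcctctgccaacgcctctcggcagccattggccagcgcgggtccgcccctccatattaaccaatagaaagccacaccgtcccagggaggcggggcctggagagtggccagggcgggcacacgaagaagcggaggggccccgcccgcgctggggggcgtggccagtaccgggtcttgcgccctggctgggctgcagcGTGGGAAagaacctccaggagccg
Lfng: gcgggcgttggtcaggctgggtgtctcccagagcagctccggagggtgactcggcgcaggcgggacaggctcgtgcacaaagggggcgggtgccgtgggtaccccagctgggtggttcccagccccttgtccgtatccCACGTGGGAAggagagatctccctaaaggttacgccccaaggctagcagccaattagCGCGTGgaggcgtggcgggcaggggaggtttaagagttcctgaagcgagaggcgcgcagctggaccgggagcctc
Hey2 held GTGGGAA at bases -207 to -201 on the opposite strand and at -4 to 3, and Lfng held it at -109 to -103, where it shares bases with an E-box at -112 to -107. Nrarp held an E-box at -108 to -103, and Lfng a CACGCG at -55 to -50 on the opposite strand. Of all promoters, 5.75% held GTGGGAA and 6.57% CACGTG.

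Nrarp, a feedback inhibitor that Notch itself switches on, was counted with 21, 20 and 20 reads in Sub-ASCs, 2, 0 and 0 reads in Ab-ASCs, and 80, 65 and 61 reads in PVASCs. Its Sub-ASC level was 0.817 ± 0.0744 CPM (SD, n = 3) and its PVASC level 2.20 ± 0.253 CPM, and in PVASCs it was higher than in Sub-ASCs and in Ab-ASCs (edgeR adjusted p = 0.000406 and 1.23e-06). The ratio of PVASCs to Ab-ASCs was 69.9, with a 95% exact Poisson interval of 19.1 to 581 (counting error only). Hey2, a Hey repressor of arteries and heart, had 43 reads in all PVASC libraries, 3 in Ab-ASC libraries and 6 in Sub-ASC libraries. The PVASC to Ab-ASC ratio of Hey2 was 9.73 (3.11 to 49.0) and the PVASC to Sub-ASC ratio 5.74 (2.43 to 16.5). Hey2 reached 10 reads in PVASC libraries alone and so entered the test through the group where it is high, and its calls are given as a description. Hes5 had no read outside 1 Sub-ASC library and was not tested.

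The Fringe enzymes add sugars to the receptors and shift their preference between Delta-like and Jagged ligands. Lfng measured 3.29 ± 0.301 CPM in Sub-ASCs, 7.25 ± 1.22 CPM in Ab-ASCs and 10.2 ± 0.173 CPM in PVASCs, and all 3 comparisons passed (edgeR adjusted p from 1.70e-07 to 0.00342). Mfng was lower in Ab-ASCs (0.354 CPM) than in Sub-ASCs (2.18 CPM) and PVASCs (1.47 CPM). Rfng was lower in PVASCs (14.7 CPM) than in Ab-ASCs (17.7 CPM) and Sub-ASCs (21.1 CPM).

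Other ligands went in both directions. Dll1, the remaining Delta-like activator, was lower in PVASCs (0.749 CPM) and Ab-ASCs (0.726 CPM) than in Sub-ASCs (2.24 CPM). Dlk1, a Delta-like protein of preadipocytes, measured 25.6 ± 2.13 CPM in PVASCs, 3.76 ± 0.0950 CPM in Ab-ASCs and 0.467 ± 0.00829 CPM in Sub-ASCs, with every pair of groups apart by the test. Dlk2 had 4 reads in all Sub-ASC libraries against 379 in PVASCs and 272 in Ab-ASCs. Egfl7, a secreted protein of endothelial cells, was 12.6-fold higher in PVASCs (81.0 CPM) than in Ab-ASCs (6.45 CPM). Of the ligand ubiquitin ligases, Neurl1b was higher in Ab-ASCs (5.84 CPM) than in PVASCs (2.76 CPM) and Sub-ASCs (0.560 CPM).

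Of the 10 proteases that process the receptors, 2 were higher and 8 lower in PVASCs than in Sub-ASCs, where 34.7% of all tested genes were higher and 35.7% lower. Adam10, which makes the first cut after ligand binding, was higher in PVASCs (224 CPM) than in Sub-ASCs (171 CPM) and Ab-ASCs (121 CPM). Adam17 was 3.52-fold higher in Sub-ASCs (301 CPM) than in PVASCs (85.6 CPM). Against Ab-ASCs the gene of this list with the largest change was Aph1b, at 16.8 CPM in PVASCs and 8.91 CPM in Ab-ASCs. Psen2 was lower in Ab-ASCs (13.3 CPM) than in Sub-ASCs (44.6 CPM).

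In the nuclear complex, Rbpj was higher in PVASCs (237 CPM) than in Sub-ASCs (197 CPM) and Ab-ASCs (193 CPM), by 0.27 ± 0.06 and 0.30 ± 0.06 on the log2 scale (edgeR adjusted p = 0.00149 and 0.00101). Maml1, a mastermind co-activator, was lower in PVASCs (50.6 CPM) than in Ab-ASCs (56.6 CPM) and Sub-ASCs (67.2 CPM). Maml3 was higher in PVASCs (18.4 CPM) than in Ab-ASCs (7.35 CPM), and the acetyltransferase gene Kat2b was higher in Sub-ASCs (91.7 CPM) than in PVASCs (25.4 CPM) and Ab-ASCs (22.9 CPM). Of 13 co-repressors, 6 were higher and 7 lower in PVASCs than in Sub-ASCs (34.7% and 35.7% of all tested genes), and Tle2 had the largest change in each comparison, at 38.6 CPM in Sub-ASCs, 5.24 CPM in Ab-ASCs and 11.7 CPM in PVASCs. Of 9 genes of receptor turnover, 1 was higher and 7 lower in PVASCs than in Sub-ASCs, beside the same 34.7% and 35.7% of all tested genes. Among them Numb, an inhibitor of Notch, was lower in PVASCs (29.2 CPM) and Ab-ASCs (28.6 CPM) than in Sub-ASCs (36.7 CPM). Dtx3l, a ubiquitin ligase that is also induced by interferon, was 19.4-fold higher in Sub-ASCs (140 CPM) than in PVASCs (7.22 CPM). Dtx1 was lower in PVASCs (0.170 CPM) than in Ab-ASCs (0.407 CPM), on few reads: 3 to 8 per PVASC library and 7 to 12 per Ab-ASC library.

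**Figure D4:**
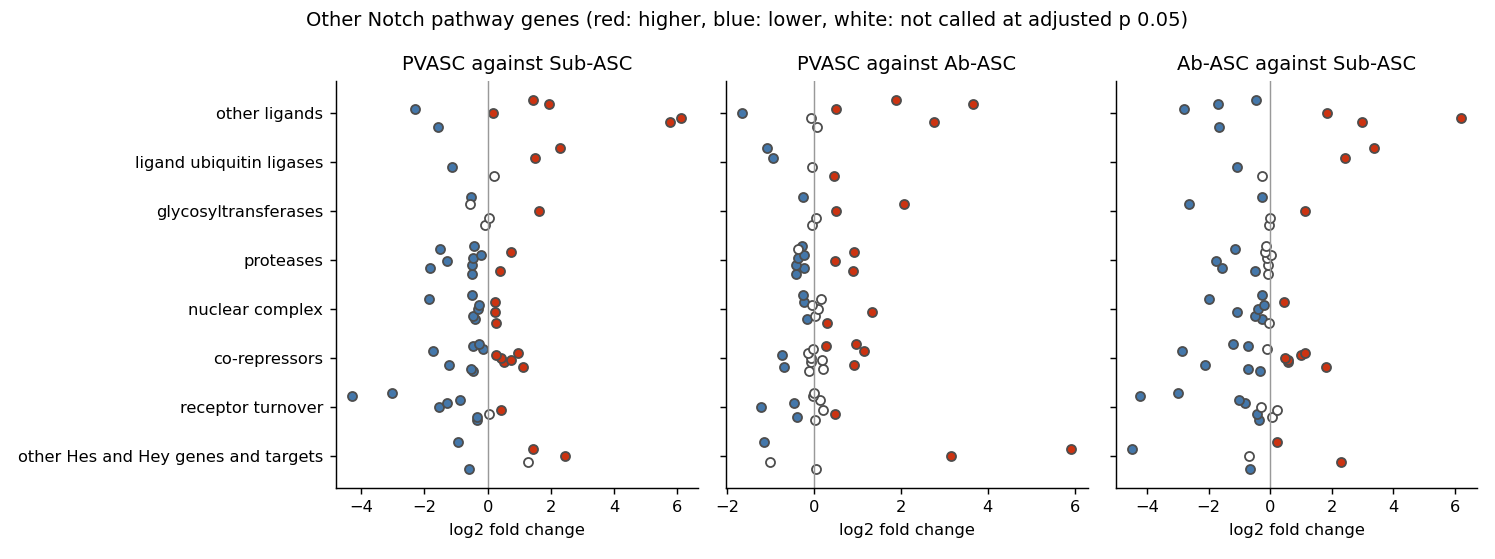
Fitted log2 fold changes of the 62 tested genes of the wider Notch pathway by role, in the 3 comparisons, with red for higher, blue for lower and white for not called. Against Sub-ASCs, 22 genes are red and 34 blue in PVASCs, and in the bottom line Nrarp is the rightmost point against Ab-ASCs.

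Endothelial markers differed among the groups along with several members. Of 10 such markers 8 were higher and 2 (Cldn5 and Tek) lower in PVASCs than in Sub-ASCs (34.7% and 35.7% of all tested genes). Compared with Ab-ASCs, 9 were higher in PVASCs (24.7%), and 9 were lower in Ab-ASCs than in Sub-ASCs (38.3%). Their summed level was 835 to 838 CPM in PVASCs, 204 to 222 CPM in Sub-ASCs and 73.3 to 75.8 CPM in Ab-ASCs, and none was at 0 in any group. Pecam1, which encodes CD31, stood at 177 to 182 CPM in PVASCs, 43.3 to 46.4 CPM in Sub-ASCs and 11.6 to 13.6 CPM in Ab-ASCs. The order PVASC, Sub-ASC, Ab-ASC of the sum was also that of Notch3, Hey1, Heyl and Nrarp, whereas Notch4 and Hes1 were higher in Ab-ASCs than in Sub-ASCs. Dll4, itself an endothelial gene, was highest in Sub-ASCs like Cldn5 (9.01 CPM in Sub-ASCs, 0.928 CPM in Ab-ASCs and 0.797 CPM in PVASCs) and Tek (46.0, 10.1 and 14.8 CPM). The methods of the study describe PVASC cultures as lacking surface CD31 and CD45 by flow cytometry, and name no sort of the sequenced cells. The part of endothelial cells in the differences of the members was not tested, and in bulk samples fewer cells of a type and less RNA per cell cannot be told apart.

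**Figure D5:**
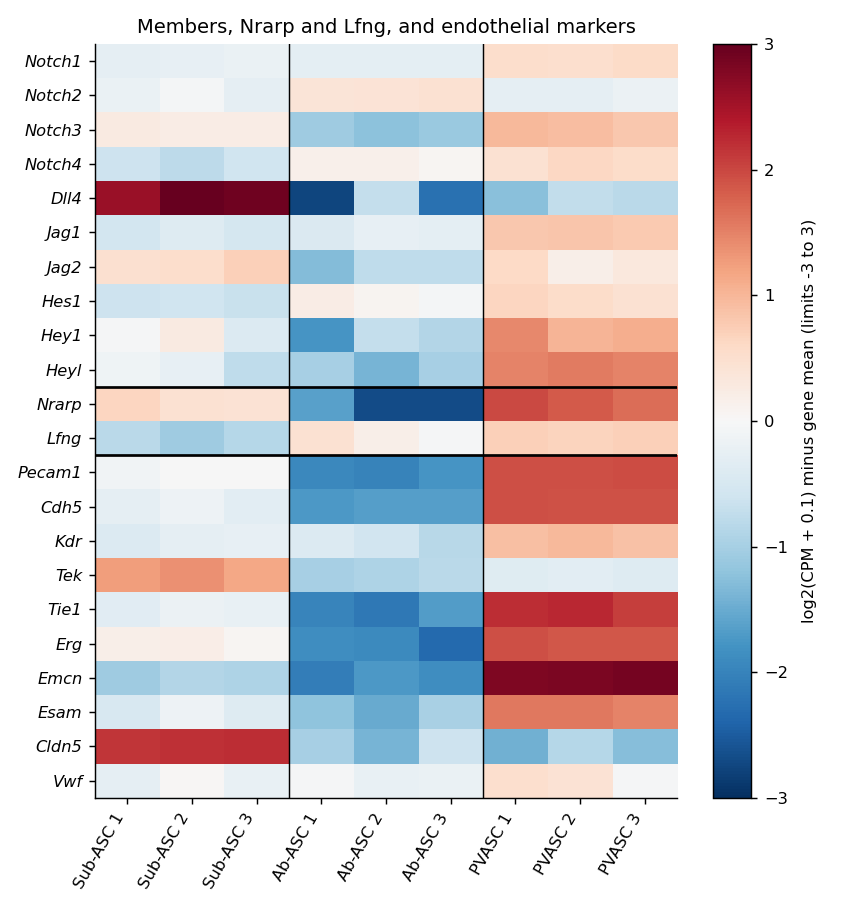
Heat map of log2(CPM + 0.1) minus the mean of each gene over the 9 libraries, for the members, Nrarp and Lfng, and the endothelial markers, with colors limited to -3 and 3. Most endothelial markers and most members are red in the 3 PVASC libraries, and Dll4, Tek and Cldn5 are red in the Sub-ASC libraries instead.

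Markers of mural cells, the pericytes and smooth muscle cells where Notch3 and Heyl are known, summed to 3314 to 3484 CPM in PVASCs, 4997 to 6117 CPM in Ab-ASCs and 799 to 813 CPM in Sub-ASCs, with 8 of 11 higher and 3 lower in PVASCs than in Sub-ASCs (34.7% and 35.7% of all tested genes). Compared with Ab-ASCs, 3 were higher and 6 lower in PVASCs (24.7% and 32.1%), and between Ab-ASCs and Sub-ASCs 6 were higher and 4 lower in Ab-ASCs (37.0% and 38.3%). In PVASCs and Ab-ASCs the sum rested mostly on Acta2, smooth muscle actin, at 2505 and 4436 CPM, whereas in Sub-ASCs Acta2 was at 52.7 CPM and most of the sum came from Pdgfrb. Without it, a choice made after the values were seen, the sums were 861 to 886 CPM in PVASCs, 980.1 to 1075 CPM in Ab-ASCs and 744 to 764 CPM in Sub-ASCs. Single markers had different orders. Rgs5 measured 22.6 CPM in PVASCs, 6.27 CPM in Sub-ASCs and 0.752 CPM in Ab-ASCs, whereas Pdgfrb measured 429, 603 and 538 CPM and Abcc9 0.502, 103 and 0.490 CPM in the same groups. Mesothelial markers summed to 41.4 to 42.3 CPM in PVASCs, 97.1 to 102 CPM in Ab-ASCs and 1.30 to 2.28 CPM in Sub-ASCs, where Upk1b and Lrrn4 were at 0. Leukocyte markers summed to 45.8 to 49.0 CPM in PVASCs, 64.4 to 77.4 CPM in Ab-ASCs and 76.3 to 80.7 CPM in Sub-ASCs, with Cd3e at 0 in PVASCs and Ab-ASCs. Here too the orders differed: Ptprc measured 2.81, 1.41 and 8.94 CPM and Csf1r 22.9, 34.1 and 17.6 CPM in PVASCs, Ab-ASCs and Sub-ASCs. Proliferation markers summed to 685 to 699 CPM in PVASCs, 674 to 751 CPM in Ab-ASCs and 121 to 126 CPM in Sub-ASCs. All 6 were higher in PVASCs and in Ab-ASCs than in Sub-ASCs (34.7% and 37.0% of all tested genes). Compared with Ab-ASCs, 1 was higher and 4 lower in PVASCs (24.7% and 32.1%). The part of these cells or of growth in the differences of the members was not tested.

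For each member, the gene with the most similar pattern was sought among the other 117 tested genes of the member, pathway and marker lists, as the highest Pearson r of log2 CPM over the 9 libraries. These libraries form 3 groups, so that r mainly reflects the order of the group means and describes the data without a test. Closest to Notch1 and to Jag1 was Mcam (r = 0.991 and 0.986), a surface protein of mural and endothelial cells. Notch1 and Jag1 were also closest to each other among the members (0.979). Notch3 was most like Nrarp (0.989), while Notch4 and Hes1 were both most like Lfng (0.986 and 0.984) and, among the members, like each other (0.975). Heyl was most like the endothelial junction gene Esam (0.986), Hey1 like Adam10 (0.972), Notch2 like Mfap5 (0.959), Dll4 like Tle4 (0.973) and Jag2 like Cd34 (0.949). Notch2 had no close partner among the members, with 0.06 for Notch4 as the highest value.

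Transcripts on the opposite strand overlap some members, and reads from the 2 strands cannot be told apart where counting ignored strand, which the sources used here do not state. The reads listed for such partners were few over all libraries: 0610009E02Rik had 1.53% as many as Notch1, Gm17276 had 0.635% as many as Notch3, and Gm14207 had 18 reads, 4.56% as many as Dll4. Gm14207 had at most 7 reads in any library. Dll4 itself had only 8 reads in all Ab-ASC libraries and 24 in all PVASC libraries, so the 4.56% need not hold in those groups.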

How the data were processed

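Bulk RNA-seq of cultured mouse ASCs was analysed in 9 libraries, 3 from each fat depot, grouped by the tissue named in the labels. The file that the authors deposited holds unnormalized read counts of each gene, beside its length and position. The submitters' processing notes name CASAVA 1.8, Bowtie 0.12.2 and featureCounts 1.5.0-p3, and the builds mm8 and mm10, without saying which tool or build served which step. The listed start and end matched GENCODE M21 on GRCm38 for 98.3% of genes, so positions are given on GRCm38. Among the members, those of Notch3 alone did not match. The library kit was NEBNext Ultra RNA, and strandedness was not given in the sources used here.

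Library totals were 20524173 to 29881036 reads. Low counts were filtered with filterByExpr, libraries were scaled by TMM, and edgeR 4.0.16 in R 4.3.3 fitted all 9 libraries together without covariates. The quasi-likelihood F-test was adjusted by Benjamini-Hochberg over 16526 genes, with a threshold of 0.05. CPM was counts over the TMM-scaled library size, and FPKM was this CPM per kilobase of the listed gene length. The procedure was tested on simulated data.

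All members were named, and so were further pathway genes whatever their values (Dll1, Dlk1, Lfng, Mfng, Rfng, Adam10, Rbpj, Maml1, Numb, Hes5, Hey2 and Nrarp) and, in each pathway list, the gene with the largest called change in each comparison. A gene that this rule also names is not reported here. Markers, and genes most like a member, were named beside them. Members and lists were chosen with earlier results of these data known. Ccn3 and Tle5 were found under the older symbols Nov and Aes.

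Alternatives were RLE size factors, DESeq2 1.42.0, dropping the low-count filter, a minimum of 10 reads per library, a fit of the compared groups alone, a replicate block, a minimum log2 fold change of 1 in either direction, and the omission of each library in turn. Same-numbered libraries were checked for shared deviations from their group means, with correlations from -0.0514 to 0.095, so they were not treated as pairs. Promoter windows were read from RefSeq, and Python 3.11.15 with pandas 2.3.3, numpy 2.4.6 and matplotlib 3.10.9 was used for tables and plots.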

Additional observations from a re-analysis of the deposited data

How the results depend on the processing

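Over 16 alternative settings, 470 member fold changes were recomputed and none reversed; 445 kept their side of the threshold, 24 fell below it and 1 rose above it. When a log2 fold change of 1 or more in size was also required, calls between PVASCs and Sub-ASCs were 5328 (2591 higher, 2737 lower), between PVASCs and Ab-ASCs 2551 (1673 higher, 878 lower, against 4088 and 5308 without the limit) and between Ab-ASCs and Sub-ASCs 6241 (2714 higher, 3527 lower). Members called then numbered 5 between PVASCs and Ab-ASCs (5 higher, 0 lower), and 4 between Ab-ASCs and Sub-ASCs (0 higher). Requiring at least 10 reads in every library dropped Dll4, Jag2 and Hey1, so that 0 members were lower in PVASCs than in Sub-ASCs, and 5 were called between Ab-ASCs and Sub-ASCs, with 2 lower. In that refit Jag1 also lost its call between Ab-ASCs and Sub-ASCs (0.12, edgeR adjusted p = 0.134), the cause of which was not tested, and the other shifts follow from fewer genes passing by construction. Leaving out 1 library gave 8 members called between PVASCs and Sub-ASCs each time, 9 to 10 between PVASCs and Ab-ASCs and 8 to 9 between Ab-ASCs and Sub-ASCs. With the replicate block, members called were 8, 9 and 9 and all genes called 11458, 9183 and 12302, and no count moved by over 1.5 times. In shares of reads not divided by length, Dll4 made up 16.5% of the ligands in Sub-ASCs and 0.442% in PVASCs, and Notch1 26.8% of the receptors in PVASCs. Depth limits Dll4, Jag2, Hey1, Nrarp, Hey2 and Dtx1, whose lowest libraries held 0 to 5 reads.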
